A study of Mus musculus with 35 samples.

Results

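The SOCS family of cytokine signalling suppressors comprises 8 genes in the mouse, Socs1 to Socs7 and Cish, and its members were taken by gene symbol from the mRNA-seq counts of CD45+ve microglia. All 8 of the family's rows, among 55401 genes in the counts, were found, and all 8 were among the 17612 genes that reached 0.5 CPM in at least 5 mice and were tested. The cells came from whole brains of wild-type C57Bl/6 mice, untreated and with no altered gene, at P6 (4 females and 6 males), P15 (6 females and 6 males) and 8 weeks (6 females and 6 males), and each mouse gave 1 library. After removal of the meninges and digestion with papain, cells that attached to a dish coated with antibody against CD45 were collected, so each library is bulk RNA of everything that attached. A further P6 female, number 6, was sequenced but was left out here. The study removed a single mouse, unnamed in its text, as an outlier by multidimensional scaling (MDS), and P6 female 6 is the deposited mouse that the data behind its MDS plot do not list. The comparisons ask how the mRNA of the family differed between ages and between sexes.

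SOCS proteins are feedback inhibitors of cytokine signalling. A cytokine that binds its receptor activates JAK kinases, which phosphorylate STAT transcription factors, and STAT factors in turn switch on genes that include several SOCS members, whose proteins then block JAK activity, occupy docking sites on the receptor or hand the receptor complex to a ubiquitin ligase through a domain called the SOCS box. Socs1 is best known for restraining interferon signalling, Socs3 for restraining signalling through the IL-6 receptor subunit gp130 and the receptors of leptin and G-CSF, and Cish and Socs2 for restraining STAT5 and growth hormone signalling, while Socs4 to Socs7 have been linked mainly to receptor tyrosine kinases and insulin signalling. In brain macrophages Socs1 and Socs3 are known as brakes on inflammatory activation.

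The libraries held 23316107 to 38965078 fragments counted on genes, and a level of 3 counts corresponded to 0.0770 to 0.129 CPM. The lowest count of any member in any of the 34 mice was 41, for Cish, so no member was near that floor. The 5 microglial markers (Tmem119, P2ry12, Sall1, Siglech and Fcrls) were detected in every mouse, with a summed level that ran from 2919 to 5290 CPM at P6 and from 7209 to 12824 CPM at P15, reaching 7870 to 11325 CPM at 8 weeks. All 5 were higher at 8 weeks than at P6. Markers of other cells were present too and moved with age. All 9 markers of neural progenitors and immature neurons fell from P6 to 8 weeks, from a summed 660 to 2036 CPM to 88.9 to 205 CPM, and of the 6 neuronal markers 4 fell and 1 rose, with sums of 276 to 925 CPM at P6 and 48.3 to 211 CPM at 8 weeks. All 6 markers of dividing cells fell, from a summed 485 to 795 CPM to 12.1 to 20.8 CPM. Other lists leaned upward from P6 to 8 weeks. Of 10 neutrophil and lymphocyte markers 8 rose and none fell, with sums of 21.6 to 74.0 CPM at P6 and 40.4 to 235 CPM at 8 weeks. Of 6 astrocyte markers 4 rose and 1 fell (372 to 974 CPM and 1243 to 3705 CPM), and of 8 markers of the oligodendrocyte lineage 6 rose and 2 fell (277 to 682 CPM and 409 to 2027 CPM). The oligodendrocyte lineage was at its highest at P15 (903 to 3659 CPM), where 6 of its 8 markers were past 2-fold above P6, and 6 of the 8 then fell by 8 weeks. Astrocyte markers at P15 summed to 556 to 3485 CPM, and 0 of the 6 rose and 1 fell from there to 8 weeks. The 9 markers of progenitors and immature neurons had fallen by P15 (124 to 844 CPM), and fell again by 8 weeks. Markers of endothelial cells and pericytes (3 of 6 higher, 1 lower) and of monocytes and macrophages (2 of 9 higher, 4 lower) moved both ways. The part of these cells in the changes of the members was not tested, apart from the fits with neural markers given with the members. The 15 immediate early and dissociation stress genes, such as Fos and Jun, summed to 7909 to 11465 CPM at P6, 9940 to 21389 CPM at P15 and 12779 to 25823 CPM at 8 weeks. In P6 female 6 the microglial markers summed to 1361 CPM and the progenitor markers to 2312 CPM, outside the range of the other P6 mice in both. In bulk libraries fewer cells of a type and less RNA per cell cannot be told apart.

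Per kilobase of exon, Socs3 was the most abundant member in every mouse and its lead widened with age. Its level in RPKM (CPM divided by the length of the union of its exons in kilobases) was 37.1 ± 11.1 in the 10 mice of P6 (mean ± SD), against 183 ± 59.9 in the 12 of P15 and 260.4 ± 66.1 in the 12 of 8 weeks. Of the summed RPKM of the 8 members, Socs3 made up 58.6 ± 8.33% at P6, and this share grew to 88.0 ± 3.23% by P15 and 91.1 ± 1.89% by 8 weeks. Socs7 came next at each age in RPKM, and its share of the sum was 19.5 ± 3.77% at P6 and 2.58 ± 0.469% at 8 weeks. Socs3 stood at the 93.1st percentile of the RPKM of 17600 tested genes with a known length at P6 and at the 99.3rd percentile at 8 weeks, while the other members lay between the 18.3rd and the 77.5th percentile at the 3 ages.

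The order of the remaining members by RPKM differed between ages. At P6 it was Socs6, Socs4, Socs5, Socs2, Cish and Socs1, at P15 Socs5, Socs6, Socs4, Socs1, Cish and Socs2, and at 8 weeks it was the same as at P15. Neighbours in these orders overlapped over the mice at each age, with the exception of Socs1 above Cish at P15 (lowest Socs1 1.81 RPKM, highest Cish 1.24 RPKM) and at 8 weeks (2.01 and 0.716 RPKM). Socs1 was the least abundant member at P6 (1.17 ± 0.254 RPKM) and Socs2 the least abundant at 8 weeks (0.430 ± 0.112 RPKM). The order also depended on the length used. With the length of the longest transcript in place of the union of exons, Socs6 (8.35 RPKM) passed Socs7 (7.35 RPKM) at 8 weeks and Cish took the last place at P15 and 8 weeks, whereas Socs3 stayed first at each age with 55.5%, 86.9% and 90.1% of the sum.

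**Figure D1:**
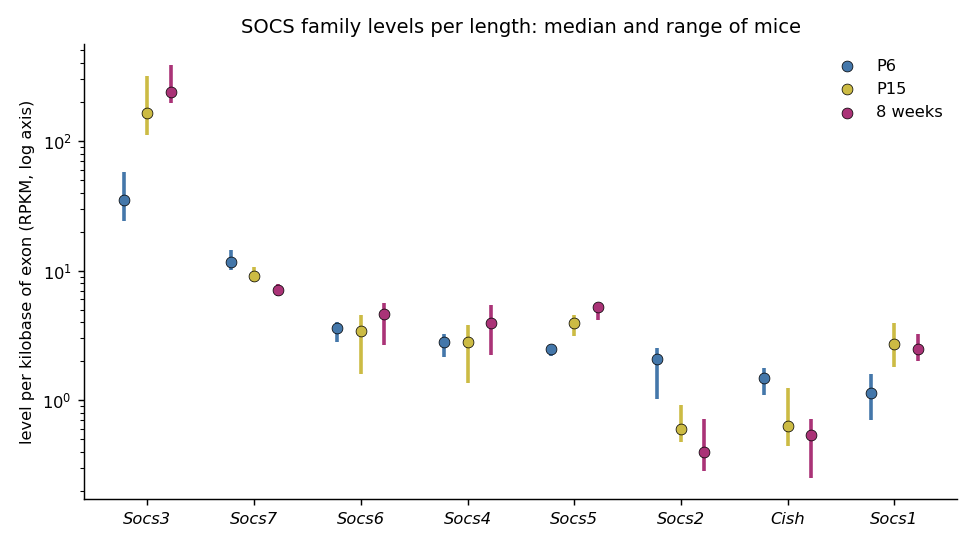
Level of each SOCS member per kilobase of exon (RPKM, log axis) at P6, P15 and 8 weeks, where points are medians over mice and lines run from the lowest to the highest mouse. Socs3 lies apart above the other members at each age, between 24.1 and 57.5 RPKM at P6 and between 195.7 and 388 RPKM at 8 weeks.

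Between P6 and 8 weeks every member changed (edgeR quasi-likelihood test, FDR below 0.05 over all genes tested), 5 upward (Socs3, Socs1, Socs5, Socs4 and Socs6) and 3 downward (Socs2, Cish and Socs7). Change was common among all genes in this comparison, at 74.4% of those tested, with 37.8% higher and 36.6% lower at 8 weeks. A change of more than 2-fold (glmTreat, FDR below 0.05) was shown for 1 member upward, Socs3, and 2 downward, Socs2 and Cish, against 11.5% of all genes upward and 12.4% downward. With neural markers as a covariate 4 members changed between P6 and 8 weeks and 0 were past 2-fold. With immediate early genes 5 changed, and Cish was no longer past 2-fold. Between P6 and P15, 6 members changed, with Socs1, Socs3 and Socs5 higher and Socs2, Socs7 and Cish lower at P15, against 61.8% of all genes (30.4% higher, 31.4% lower). Past 2-fold were Socs3 upward and Socs2 downward, against 4.87% and 4.85% of all genes, and Socs2 lost that call with neural markers as a covariate (log2FC = -1.14, FDR = 0.589). Between P15 and 8 weeks, 7 members changed, all but Socs1, with 4 higher and 3 lower, against 47.9% of all genes (24.0% higher, 23.9% lower). With neural markers as a covariate 2 members changed between these ages, and with immediate early genes 4. None of the 8 moved past 2-fold between P15 and 8 weeks, at an unadjusted p under 0.05 or by DESeq2 or limma-voom, against 1.20% of all genes upward and 3.07% downward.

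The median log2FC of the 8 members was 0.00 between P6 and P15, 0.46 between P6 and 8 weeks and 0.16 between P15 and 8 weeks, where the median over all genes tested was -0.01, 0.04 and 0.02. With scaling by library size alone, the median over all genes was -0.14 between P6 and P15 and -0.10 between P6 and 8 weeks, and of the genes called, 4352 were higher and 6697 lower at P15 (5347 and 5535 with TMM) and 5676 higher and 7330 lower at 8 weeks (6654 and 6443 with TMM). Each member's called changes kept their direction under that scaling, with Socs6 no longer passing between P6 and 8 weeks (FDR = 0.0828). With P6 female 6 included the counts of members called were again 6, 8 and 7.

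**Figure D2:**
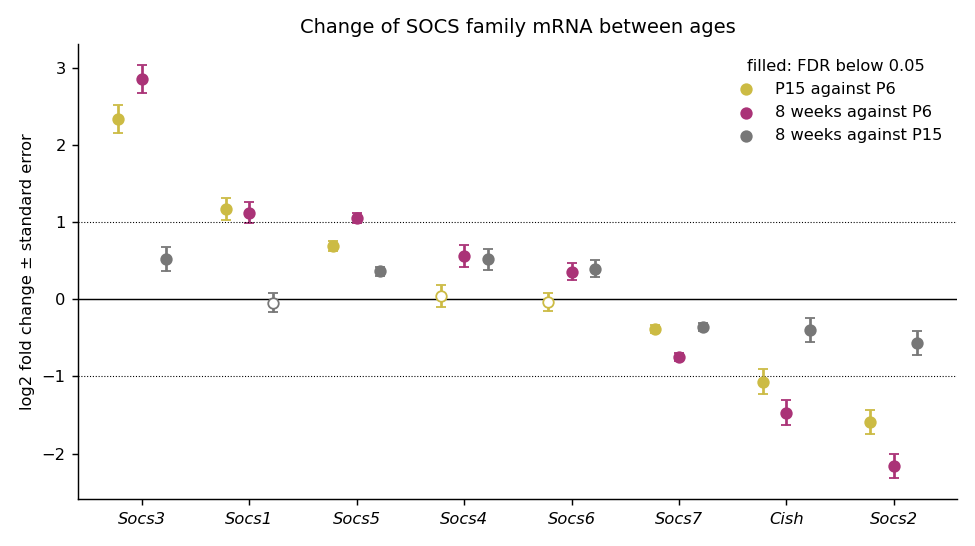
Log2 fold change of each SOCS member between ages from the edgeR fit, with bars of 1 standard error, filled where the FDR was below 0.05, and dotted lines at a 2-fold change. From P6 to 8 weeks the values run from 2.86 for Socs3 to -2.16 for Socs2, and 3 open points mark members that did not pass.

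Socs3 (ENSMUSG00000053113, protein coding, GRCm38 chr11:117966079-117970047, minus strand), the inhibitor of gp130 receptors, had the largest rise of the family. Its level was 69.7 to 166 CPM at P6 (median 101), 324 to 922 CPM at P15 (median 476) and 566 to 1123 CPM at 8 weeks (median 688). Every P15 and 8-week mouse lay above every P6 mouse, as did 13% of all genes in one direction or the other between P6 and P15 and 29.5% between P6 and 8 weeks, while P15 and 8 weeks overlapped. The log2FC was 2.33 at P15 against P6 (standard error 0.178, FDR = 8.32e-13), a 5.04-fold difference, and 2.86 at 8 weeks against P6 (standard error 0.183, FDR = 4.86e-15), a 7.24-fold difference. From P15 to 8 weeks it was 0.52 (standard error 0.155, FDR = 0.00637). The highest P15 mice, P15 male 6 (922 CPM) and P15 male 5 (806 CPM), reached the levels of the upper 8-week mice. With the level of immediate early genes as a covariate, the log2FC was 1.80 at 8 weeks against P6 and -0.0037 at 8 weeks against P15, and with the level of neural markers it was 1.29 and -0.36, and with these the change from P6 to 8 weeks was no longer past 2-fold (FDR = 0.154). Between P6 and 8 weeks neither covariate overlapped, at 7.73 to 8.67 and 9.02 to 9.99 mean log2 CPM for immediate early genes and at 4.75 to 6.47 and 1.83 to 3.42 for neural markers, so that age cannot be told apart from either in these fits.

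Socs1 (ENSMUSG00000038037, protein coding, chr16:10782240-10785536, minus strand), the inhibitor of interferon receptors, rose between P6 and P15, and its difference between P15 and 8 weeks did not pass the test. It stood at 2.06 to 4.64 CPM at P6 (median 3.32), 5.27 to 11.5 CPM at P15 (median 7.85) and 5.84 to 9.45 CPM at 8 weeks (median 7.27). Both older ages lay entirely above P6. Against P6 the log2FC was 1.17 for P15 (FDR = 1.70e-08) and 1.12 for 8 weeks (FDR = 1.71e-08), each with a standard error of 0.140, and neither was shown to exceed 2-fold (glmTreat FDR = 0.268 and 0.231). From P15 to 8 weeks the difference of -0.04 did not pass (FDR = 0.797), with a 95% interval of -0.29 to 0.21. With immediate early genes as a covariate, the log2FC of Socs1 from P6 to 8 weeks was 0.37 and no longer passed (FDR = 0.182), and with neural markers it was 0.72 (FDR = 0.0503). The immediate early gene covariate also gave a fall of Socs1 from P15 to 8 weeks (log2FC = -0.42, FDR = 0.0312), the 1 of 18 alternatives that called this comparison.

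Socs2 (ENSMUSG00000020027, protein coding, chr10:95385362-95417180, minus strand), the inhibitor of growth hormone signalling, had the largest fall. The 4 P6 females had 21.9, 23.2, 22.5 and 15.4 CPM and the 6 P6 males 9.69 to 24.1 CPM (median 14.8). At P15 the level was 4.54 to 8.83 CPM (median 5.76) and at 8 weeks 2.7 to 6.79 CPM (median 3.81), so that every older mouse lay below every P6 mouse. Against P6 the log2FC was -1.59 for P15 (FDR = 2.95e-10, standard error 0.157) and -2.16 for 8 weeks (FDR = 1.73e-13, standard error 0.160). Between P15 and 8 weeks it was -0.57 (FDR = 0.00280, standard error 0.151). From P6 to 8 weeks it was 4.46-fold lower. With neural markers as a covariate the log2FC of Socs2 from P6 to 8 weeks was -1.10, still changed but no longer past 2-fold, and between P15 and 8 weeks it was 0.04 (FDR = 0.893). With immediate early genes the difference between P15 and 8 weeks was -0.49 (FDR = 0.0932).

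Cish (ENSMUSG00000032578, protein coding, chr9:107296026-107302784, plus strand), named for cytokine-inducible SH2-containing protein and induced by STAT5, fell alongside Socs2. It was at 7.08 to 11.4 CPM at P6 (median 9.45), 2.87 to 7.93 CPM at P15 (median 4.05) and 1.61 to 4.60 CPM at 8 weeks (median 3.44). The 8-week mice lay below every P6 mouse (29.5% of all genes lay apart between these ages), while at P15 a male, number 1 (7.93 CPM), overlapped the P6 range. The log2FC was -1.07 at P15 against P6 (standard error 0.162, FDR = 1.14e-06) and -1.47 at 8 weeks against P6 (standard error 0.163, FDR = 1.53e-09). Between P15 and 8 weeks it was -0.40 (FDR = 0.0325), and this call was lost in 4 of 18 alternatives. These were the fits without P15 male 1 (log2FC = -0.32, FDR = 0.0719), without P6 (FDR = 0.0695), with immediate early genes as a covariate (-0.27, FDR = 0.404) and with neural markers as a covariate, where its sign turned (0.010, FDR = 0.978). With neural markers as a covariate the change of Cish from P6 to 8 weeks was -0.79 and no longer passed (FDR = 0.0752). The call past 2-fold from P6 to 8 weeks was lost with either covariate (FDR = 0.977 with neural markers and 0.407 with immediate early genes, where the log2FC was -1.24). Exons of Cish overlap those of the opposite-strand genes Gm17040 and Gm17041 by 261 and 479 bases, and the study counted fragments by strand.

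Cish and Socs3 are induced by STAT factors, which bind the palindrome TTCNNNGAA, so the promoters of the members were searched for these letters. RefSeq promoters (300 bases, 250 before and 50 after the transcript start, GRCm38.p6) were at hand for 4 of the 8 members, Cish, Socs1, Socs3 and Socs4. The motif reads the same on both strands. It was found in Cish and Socs3, the members that are shown here with the matches in capitals, 5′ to 3′ on the strand of the gene, and these letters were not in the windows of Socs1 and Socs4.
Cish (chr9:107296656-107296681, plus strand): gttTTCCTGGAAagTTCTTGGAAatc
Socs3 (chr11:117969509-117969523, minus strand): gccTTCTTAGAAggg
The 2 matches of Cish begin at the RefSeq start and 11 bases after it, and the match of Socs3 begins at position -154 from its start. Of 32841 promoter windows in the table, 8.30% held at least 1 match and 0.457% held 2 or more. Cish and Socs3, the members with the motif, changed in opposite directions with age.

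Of the members linked to tyrosine kinase receptors, Socs5 rose and Socs7 fell, both with little spread between mice. Socs5 (ENSMUSG00000037104, protein coding, chr17:87107679-87137839, plus strand), known for restraining EGF receptor and IL-4 signalling, was at 14.0 to 16.9 CPM at P6 (median 16.0), 20 to 29.1 CPM at P15 (median 25.4) and 26.7 to 34.8 CPM at 8 weeks (median 33.5). P6 lay apart below both older ages, which overlapped each other. Against P6 its log2FC was 0.69 for P15 (FDR = 4.99e-11, standard error 0.0627) and 1.05 for 8 weeks (FDR = 9.27e-16, standard error 0.0633), and between P15 and 8 weeks it was 0.36 (FDR = 7.98e-06). It passed in each of the 18 alternatives tried, between 0.91 and 1.11 for 8 weeks against P6.

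Socs7 (ENSMUSG00000038485, protein coding, chr11:97362551-97398542, plus strand), a nuclear and cytoplasmic member that binds adaptor proteins such as NCK, was at 73.7 to 104 CPM at P6 (median 84.3), 59.1 to 77.7 CPM at P15 (median 65.5) and 45.9 to 57.6 CPM at 8 weeks (median 51.2). The 8-week mice lay below every mouse of both younger ages. Socs7 was the only member whose mice at P15 and 8 weeks did not overlap, as for 3.36% of all genes. Between P6 and 8 weeks 29.5% of all genes did not overlap. Its log2FC was -0.39 at P15 against P6 (FDR = 3.92e-07), -0.75 at 8 weeks against P6 (standard error 0.0549, FDR = 1.34e-13) and -0.36 between P15 and 8 weeks (FDR = 1.47e-06), and it passed in all 18 alternatives. The coefficient of variation between mice of 1 age was 6.36 to 9.64% for Socs5 and 6.67 to 9.70% for Socs7, against 25.4 to 32.8% for Socs3 and 21 to 31.5% for Socs2.

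Socs4 and Socs6 did not change between P6 and P15 by the test and were higher at 8 weeks. Socs4 (ENSMUSG00000048379, protein coding, chr14:47276931-47296102, plus strand), the closest relative of Socs5 and like it linked to the EGF receptor, was at 14.9 to 22.2 CPM at P6 (median 19.5), 9.38 to 26.4 CPM at P15 (median 19.4) and 15.3 to 37.0 CPM at 8 weeks (median 27.2), and all 3 ages overlapped. Its log2FC was 0.04 at P15 against P6 (95% interval -0.24 to 0.32) and 0.56 at 8 weeks against P6 (standard error 0.146, FDR = 9.72e-04). From P15 to 8 weeks it was 0.52 (FDR = 0.00246).

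Socs6 (ENSMUSG00000056153, protein coding, chr18:88665224-88927481, minus strand), which binds KIT and insulin receptor signalling complexes, was at 31.7 to 45.7 CPM at P6 (median 40.9), 18.2 to 51.3 CPM at P15 (median 38.9) and 30.4 to 63.4 CPM at 8 weeks (median 52.2). All 3 ages overlapped here too. Its log2FC was -0.04 at P15 against P6 (95% interval -0.26 to 0.18), 0.36 at 8 weeks against P6 (standard error 0.114, FDR = 0.00561) and 0.40 between P15 and 8 weeks (FDR = 0.00312). P15 male 1 was the lowest P15 mouse in Socs4 and in Socs6, and 8 weeks male 4 was low in both (15.3 and 35.4 CPM). Without either mouse both members still passed between P6 and 8 weeks. With neural markers as a covariate the changes from P6 to 8 weeks were 0.52 for Socs4 (FDR = 0.222) and -0.17 for Socs6 (FDR = 0.610), and with immediate early genes they were 0.64 (FDR = 0.0820) and -0.09 (FDR = 0.748). Between P15 and 8 weeks Socs6 was at 0.10 with neural markers (FDR = 0.652) and 0.16 with immediate early genes (FDR = 0.403), and Socs4 at 0.50 (FDR = 0.0854) and 0.56 (FDR = 0.0340).

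**Figure D3:**
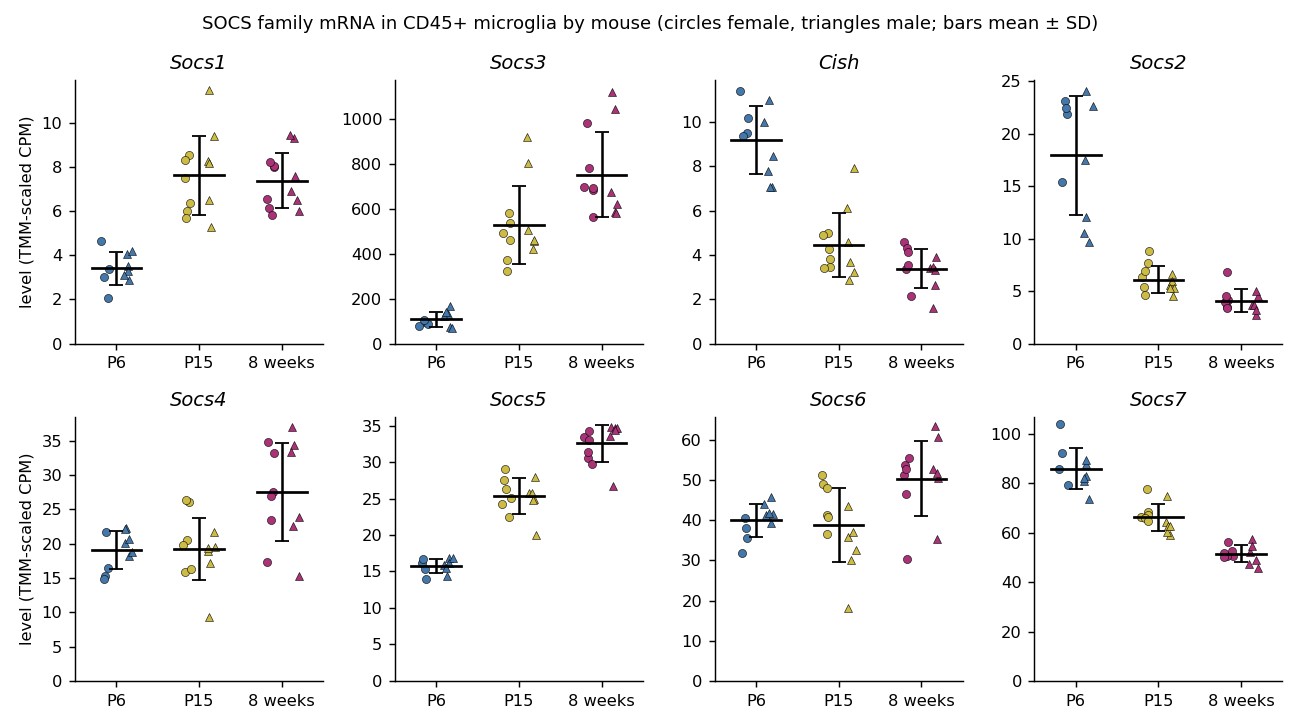
Level of each SOCS member in TMM-scaled CPM for every mouse (circles female, triangles male), with the mean and SD of each age in black and a linear axis from 0. All 8-week mice lie above all P6 mice in Socs1, Socs3 and Socs5 and below them in Cish, Socs2 and Socs7, while Socs4 and Socs6 overlap. Of all genes tested, 29.5% did not overlap between P6 and 8 weeks.

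P6 female 6, outside the 34 mice, had 64.2 CPM of Socs3, 27.3 CPM of Socs2, 24.2 CPM of Socs6 and 23.3 CPM of Socs5 when all 35 libraries were scaled together. Its Socs3 and Socs6 lay below and its Socs2 above the P6 range, and its Socs5 lay between the P6 and the 8-week ranges.

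No member differed between the sexes by the test at any age. Across all genes, 0.0511% (9 genes) differed at P6, 0.0681% (12) at P15 and 0.114% (20) at 8 weeks. DESeq2 and limma-voom also called 0 of the 8 at each age. At an unadjusted p under 0.05 the edgeR fit held 1 member, Socs6, at P15, where 3200 of the 17612 genes passed that level, and 0 at the other ages, where limma-voom held 1 at P6, Socs2. Socs6 had 36.6 to 51.3 CPM in P15 females (median 44.7) and 18.2 to 43.7 CPM in P15 males (median 34.2), which overlapped. The log2FC of males against females at P15 was -0.44 (95% interval -0.73 to -0.14, FDR = 0.252), and -0.28 without P15 male 1 (FDR = 0.453). Over the other members and ages the log2FC of males against females lay between -0.37 (Socs2 at P6) and 0.37 (Socs3 at P15). The change with age was not shown to differ between the sexes for any member. The interaction of sex and age was called for 0% of all genes (0 by limma-voom and 14 by DESeq2, with 2083 at an unadjusted p under 0.05 in edgeR), and among members the lowest FDR was that of Socs6 (FDR = 0.406).

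Within a group of the same age and sex, mice with more Socs3 had less neural marker mRNA at each age, and at P6 and P15 more microglial marker mRNA, a relation that was weak at 8 weeks. Members were set against each other and against 3 marker levels by the deviation of each mouse from the mean of its group (n = 34 mice, log2 CPM, 52 relations in 4 families, two-sided permutation within groups with 100000 permutations, adjusted within each family). Of the 52 relations, 11 passed by Pearson's r. For Socs3 and the 15 neural markers r was -0.82 and Spearman's rho -0.80 (permutation p = 1e-05 for both, the smallest they can give, adjusted p = 8e-05). It was -0.78 without the 2 mice with the most extreme neural levels, and -0.83, -0.96 and -0.62 within P6, P15 and 8 weeks. For the microglial markers r was 0.72 and rho 0.65 (permutation p = 6e-05 and 3.2e-04, adjusted p = 4.8e-04 and 0.00204), with 0.70 without 2 mice and 0.91, 0.86 and 0.18 within the 3 ages. With scaling by library size these were 0.89, 0.75 and -0.31, so the sign at 8 weeks depended on the scaling. For the immediate early genes r was 0.65 and rho 0.65 (permutation p = 1.8e-04 and 2.8e-04, adjusted p = 0.00144 and 0.00224), with 0.58 without 2 mice and 0.17, 0.82 and 0.81 within the 3 ages, where scaling by library size gave -0.085, 0.72 and 0.72. The part of each of these in the change of Socs3 with age was not tested beyond the fits with covariates.

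Socs2 ran the opposite way to Socs3 with neural and microglial markers, but its r with immediate early genes was -0.099 (rho -0.11, permutation p = 0.526 and 0.526, adjusted p = 0.880 and 0.650). The r of Socs2 was 0.57 with neural markers (rho 0.63, permutation p = 5.1e-04 and 3.8e-04, adjusted p = 0.00204 and 0.00152, and 0.61 without 2 mice) and -0.61 with microglial markers (rho -0.65, permutation p = 4.2e-04 and 5.1e-04, adjusted p = 0.00168 and 0.00204, and -0.58 without 2 mice). By age, from the youngest to the oldest, r was 0.80, 0.58 and 0.51 with neural markers and -0.90, -0.60 and -0.27 with microglial markers. Socs2 and Socs3 were themselves related with r = -0.58 (rho -0.58, permutation p = 0.00158 and 0.00132, adjusted p = 0.0147 and 0.0185), at -0.85, -0.64 and -0.19 within P6, P15 and 8 weeks. Socs1 was related to the immediate early genes, with r = 0.62 (rho 0.59, permutation p = 6.6e-04 and 0.00100, adjusted p = 0.00264 and 0.00400, and 0.56 without 2 mice). Its r with them within the 3 ages was 0.68, 0.82 and 0.26. With scaling by library size these were 0.71, 0.72 and -0.015, so the sign at 8 weeks depended on the scaling.

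Among pairs of members the closest relation was that of Socs4 and Socs6, with r = 0.79 (rho 0.63, permutation p = 7e-05 and 6.9e-04, adjusted p = 0.00196 and 0.0185), which was 0.64 without P15 male 1 and 8 weeks male 4. Within P6, P15 and 8 weeks it was 0.72, 0.72 and 0.87. Socs4 and Socs5 (r = 0.70, rho 0.48, permutation p = 4.2e-04 and 0.00744, adjusted p = 0.00588 and 0.0694) fell to 0.47 without these mice, and its r within the 3 ages was -0.083, 0.89 and 0.75. Socs5 and Socs6 (r = 0.61, rho 0.37, permutation p = 0.00346 and 0.0448, adjusted p = 0.0242 and 0.209) fell to 0.31, so this relation rested on them, with -0.40, 0.76 and 0.70 within the 3 ages. With scaling by library size the r within P6 was 0.14 for Socs5 and Socs6 and 0.22 for Socs4 and Socs5, so both signs there depended on the scaling. With P6 female 6 added the r of Socs5 and Socs6 over all mice was 0.20 (adjusted p = 0.596 by permutation). Socs6 and the microglial markers (r = 0.49, rho 0.30, permutation p = 0.0103 and 0.0938, adjusted p = 0.0275 and 0.188) fell to 0.34 without P15 male 1 and P6 male 3, with -0.14, 0.77 and 0.40 within the 3 ages.

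**Figure D4:**
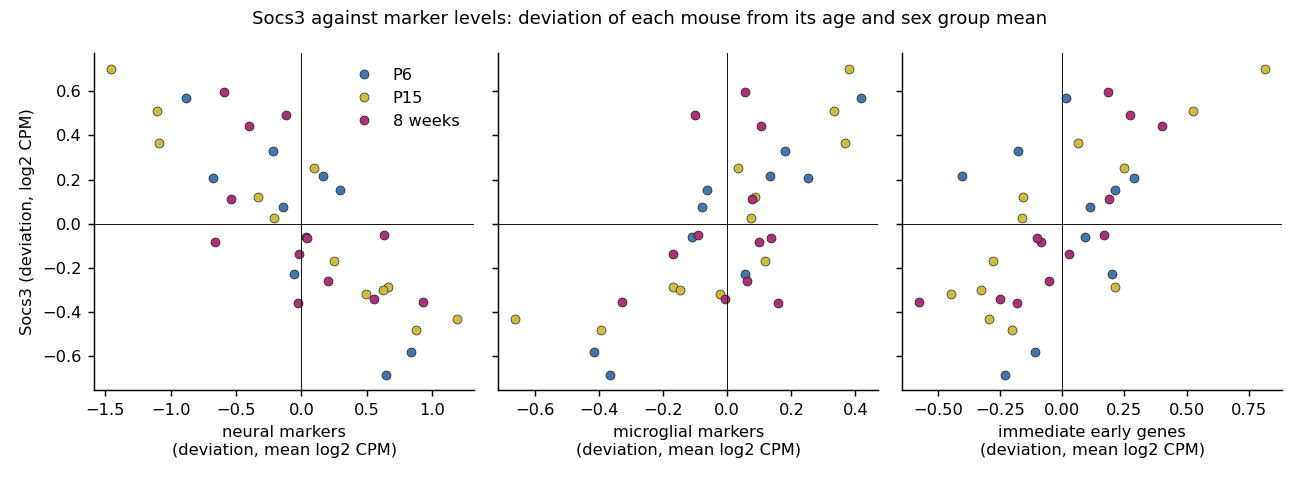
Deviation of Socs3 (log2 CPM) from the mean of its age and sex group in each of 34 mice, against the deviation of the mean log2 CPM of neural markers, microglial markers and immediate early genes, coloured by age. Socs3 falls with neural markers (r = -0.82) over all mice, and rises with microglial markers (r = 0.72, but 0.18 within 8 weeks, where scaling by library size turned its sign) and immediate early genes (r = 0.65, but 0.17 within P6, where that scaling turned it too).

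Likeness of pattern was measured as the root mean square difference of the 6 group means of log2 CPM, each gene centred on its own mean, for the members past 2-fold. Nearest to Socs3 were Zfp691 (0.0712), a zinc finger protein, Spint1 (0.0941), a serine protease inhibitor, and Ermn (0.0990), an oligodendrocyte cytoskeletal protein. The level of Zfp691 was 18.4 ± 4.88 CPM at P6 and 120.3 ± 14.3 CPM at 8 weeks. Nearest to Socs2 were Myh10 (0.0794), which encodes a non-muscle myosin heavy chain, 1110032F04Rik (0.0851) and Lipg (0.0985), an endothelial lipase, with Myh10 at 105 ± 32.1 CPM at P6 and 24.8 ± 4.34 CPM at 8 weeks. Nearest to Cish were Prmt1 (0.0815), an arginine methyltransferase, the processed pseudogene Ybx1-ps2 (0.0849) and 6820408C15Rik (0.0863), with Prmt1 at 175 ± 19.8 CPM at P6 and 62.3 ± 9.87 CPM at 8 weeks. The less abundant of these genes varied widely between mice, so that their likeness is less certain. At 8 weeks 1110032F04Rik was at 0.464 ± 0.268 CPM, Lipg at 0.304 ± 0.206 CPM, Ybx1-ps2 at 0.398 ± 0.124 CPM and 6820408C15Rik at 0.242 ± 0.193 CPM, and Ermn was at 0.464 ± 0.339 CPM at P6. Within the family the nearest pairs were Socs4 and Socs6 (0.104), Socs1 and Socs5 (0.222) and Socs2 and Cish (0.289).

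The genes around the SOCS family in JAK-STAT signalling rose more often than they fell from P6 to 8 weeks. Over 10 lists of 117 tested genes, 72 rose and 21 fell, against 37.8% and 36.6% of all genes. The lists were chosen with earlier results of these data known. All 5 microglial markers rose over the same ages, and their part was not tested. Between P6 and P15, 67 rose and 21 fell, against 30.4% and 31.4% of all genes, and between P15 and 8 weeks 45 rose and 13 fell, against 24.0% and 23.9%. With a covariate in the fit, more still rose than fell between P6 and P15, with 37 and 25 with neural markers (4798 and 4556 of all genes) and 44 and 19 with immediate early genes (4419 and 4456). The comparisons with 8 weeks depended more on the covariate. With neural markers 20 rose and 27 fell from P6 to 8 weeks and 12 rose and 33 fell from P15 to 8 weeks, and with immediate early genes 38 rose and 18 fell and 13 rose and 14 fell. Of all 17612 genes, those higher and lower with neural markers numbered 4458 and 4144 from P6 to 8 weeks and 3502 and 3484 from P15 to 8 weeks. With immediate early genes they numbered 4043 and 4028, and 2116 and 2610. Of the 52 genes named from these lists and from the stress genes, 24 kept both their direction and their call or lack of one with neural markers and 34 with immediate early genes. The rises and falls below are therefore those of the fit without a covariate. Of the 4 JAK kinases 3 rose and none fell, with a list median log2FC of 0.54, where the median of all genes was 0.04 in this comparison. Jak1 went from 207 ± 34.6 CPM to 332 ± 37.0 CPM (log2FC = 0.72) and Tyk2 from 53.0 ± 9.48 to 88.2 ± 10.5 CPM (log2FC = 0.75), while Jak2 rose by 0.36 (FDR = 0.0212) and Jak3, the kinase of common gamma chain receptors, differed by -0.15 (FDR = 0.251). With neural markers as a covariate the rises of the JAK kinases were not kept, at -0.13 for Jak1 (FDR = 0.539), -0.0059 for Jak2 (FDR = 0.990) and -0.31 for Tyk2 (FDR = 0.0400). With immediate early genes they were 0.23 (FDR = 0.299), 0.14 (FDR = 0.719) and 0.12 (FDR = 0.592). Of 6 STAT factors 5 rose, with a list median of 0.91. Stat5b, which relays growth hormone signals, went from 40.2 ± 5.11 to 89.6 ± 10.1 CPM (log2FC = 1.16), and Stat2, Stat5a and Stat6 rose by 0.85, 0.93 and 0.88, with Stat6 at -0.25 with neural markers as a covariate (FDR = 0.134). Stat4 rose by 2.26 from a low level of 0.202 ± 0.137 CPM to 0.948 ± 0.467 CPM. The neutrophil and lymphocyte markers rose over the same ages (8 of 10, list median log2FC of 1.76), and their part in the rise of Stat4, a factor best known from lymphocytes, was not tested. Stat3, the factor downstream of gp130, stood at 179 ± 31.3 CPM at P6 and 182 ± 26.6 CPM at 8 weeks (log2FC = 0.05, FDR = 0.649), and was lower with either covariate (-0.79 with neural markers, FDR = 1.62e-05, and -0.48 with immediate early genes, FDR = 0.0110).

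Of the 24 cytokine receptor genes 23 were tested, 17 rose and 2 fell (list median 1.10). Il7r, the IL-7 receptor, rose from 1.42 ± 0.516 to 30.9 ± 8.04 CPM (log2FC = 4.52), and Csf3r, the G-CSF receptor that Socs3 restrains, rose from 164 ± 32.7 to 887 ± 88.2 CPM (log2FC = 2.47). Prlr, the prolactin receptor, rose from 0.158 ± 0.134 to 0.742 ± 0.977 CPM (log2FC = 1.93, FDR = 0.00377). A single mouse, 8 weeks male 1 (3.62 CPM), set much of that mean, and without it 8 weeks was at 0.481 ± 0.383 CPM (log2FC = 1.55, FDR = 0.0133). Lepr, the leptin receptor, fell from 1.35 ± 0.560 to 0.354 ± 0.251 CPM (log2FC = -1.88) and Epor, the erythropoietin receptor, from 13.1 ± 2.67 to 5.45 ± 1.2 CPM (log2FC = -1.26). Of the 5 growth factor receptors bound by SOCS proteins (list median -0.29), Flt3 (1.16) and Insr (0.45) rose and Kit (-2.35), Egfr (-1.11) and Igf1r (-0.29) fell on the log2 scale. The fall of Egfr turned with either covariate, to 1.38 with neural markers (FDR = 0.00219) and 0.25 with immediate early genes (FDR = 0.673). Of 19 ligand genes 11 were tested, 7 rose and 1 fell (list median 0.997). Il6 rose from 0.676 ± 0.375 to 5.38 ± 1.41 CPM and Clcf1, a gp130 cytokine, from 8.56 ± 2.92 to 57.9 ± 6.57 CPM, while Ifng went from 0 to 0.0878 CPM at P6, at the floor of detection, to 0.219 to 1.5 CPM at 8 weeks. Ifng is known as a product of T and NK cells, and the part of the lymphocyte markers, which rose as well, was not tested. Ctf1, cardiotrophin, fell by 0.91 on the log2 scale (FDR = 0.0242), and was at 0.14 with immediate early genes as a covariate (FDR = 0.889).

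Of the 12 other negative regulators of JAK-STAT signalling 8 rose and 2 fell (list median 0.54). The largest rises were those of Usp18 (log2FC = 1.59), which restrains the type I interferon receptor, Ptprc (1.58), which encodes CD45 itself, and Pias1 (0.75), and the falls were those of Ptpn11 (-0.74), which encodes the phosphatase SHP2, and Pias2 (-0.28). The ubiquitin ligase partners that the SOCS box recruits went the other way. Of 6 tested, 4 fell and none rose (list median -0.54), with Elob from 90.7 ± 7.49 to 44.5 ± 9.0 CPM (log2FC = -1.05), Rbx1 at -0.68 and Rnf7 at -0.63. Of 24 other SOCS box genes 16 were tested, 8 rose and 5 fell (list median 0.18), led by Spsb1 (1.85), Asb2 (1.41) and Asb13 (1.33) upward and Asb11 (-2.61), Spsb4 (-2.09) and Wsb2 (-0.83) downward. Asb11 was a low gene, at 1.07 ± 0.461 CPM at P6 and 0.169 ± 0.211 CPM at 8 weeks, where the median of 0.048 CPM lay under the level of 3 counts, so the size of its fall depends on the prior count. Spsb4 was at 1.41 with neural markers as a covariate (FDR = 0.0194) and at 0.00051 with immediate early genes (FDR = 0.998).

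Of the 20 interferon-induced genes 14 rose and 1 fell (list median 1.04). The largest rises were Igtp (1.90), Ifit3 (1.77) and Iigp1 (1.41), and Cxcl10, a chemokine, fell from 113 ± 48.5 to 31.3 ± 10.5 CPM (log2FC = -1.62). Of the 15 STAT3 and STAT5 target genes 9 rose and 3 fell (list median 0.34), with Cebpd (2.15), Fgl2 (1.72) and Myc (1.60) higher and Ccnd2 (-3.96), Pim1 (-1.32) and Bcl3 (-0.86) lower. Ccnd2, which encodes a cyclin, fell together with the markers of dividing cells (6 of 6) and neural progenitors (9 of 9), whose part was not tested. Of the 15 immediate early and dissociation stress genes 10 rose and 1 fell (list median 0.78). Hspa1a rose from 35.9 ± 23.1 to 1186 ± 594 CPM and Hspa1b from 26.1 ± 20.7 to 1525 ± 779 CPM, and Btg2 rose by 2.11 on the log2 scale, while Ier2 fell by 0.44. Hspa1a and Hspa1b are near-identical copies, as are Ifit3 and its neighbour Ifit3b, so their single values are uncertain.

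**Figure D5:**
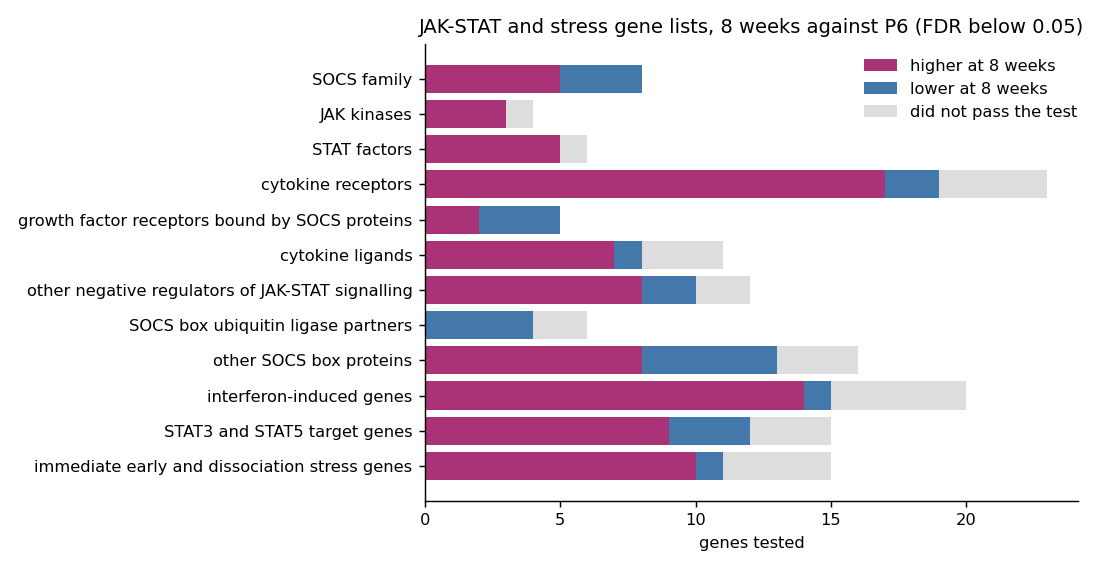
Number of tested genes of each JAK-STAT list, and of the immediate early and stress genes, that were higher, lower or did not pass the test at 8 weeks against P6. Receptors (17 of 23 higher), STAT factors (5 of 6) and interferon-induced genes (14 of 20) lean upward, and the ubiquitin ligase partners (4 of 6 lower) lean downward.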

How the data were processed

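Levels are raw counts per gene that the authors deposited, 1 column per mouse, from directional libraries aligned to GRCm38/mm10 with STAR and counted by strand with featureCounts. The annotation release is not given in the sources used here. Genes were named from GENCODE M21 (55141 of 55401 identifiers). Columns were matched to mice by their titles, and 34 mice formed the main set. No 2 libraries of a group were copies of each other (lowest chi-square per gene 12.8 over 85 pairs).

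Counts were analysed with DESeq2 1.42.0, limma 3.58.1 and edgeR 4.0.16 in R 4.3.3, with Python 3.11.15 (scipy 1.17.1, numpy 2.4.6, matplotlib 3.10.9, pandas 2.3.3) for the rest. A gene entered if 5 or more mice had 0.5 CPM or above, and TMM set the library scaling. An edgeR quasi-likelihood fit (robust) had 1 mean per age and sex group, and age contrasts averaged the sexes. Changes were tested with glmQLFTest and against 2-fold with glmTreat, two-sided, with Benjamini-Hochberg adjustment (FDR) over all 17612 genes. The paper used limma-voom with TREAT, an alternative here. Mice are separate animals. Log2 CPM used a prior count of 2, and 95% intervals are 1.96 standard errors either side. The fit was tested on simulated data. Floors cover counting error alone, since reads had no molecular identifiers. Promoter sequences are RefSeq's.

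The members and the gene lists were chosen with earlier results of these data known. Named genes are all members, the JAK and STAT genes, the up to 3 largest rises and falls of each other list from P6 to 8 weeks, and the 3 genes most like each member past 2-fold. The alternatives used all 35 mice, size factors of DESeq2 or plain library sizes, DESeq2, limma-voom, 2 other count filters (none, or at least 10 counts in every mouse), fits of the groups compared, age only, the replicate block, 2 covariates, each P6 female left out, and the length of the longest transcript. Leaving out P15 male 1 or 8 weeks male 4, or 8 weeks male 1 for Prlr, was chosen after seeing the data. A marker and a pathway gene of the chosen lists are not reported here, and every list value was computed without them.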

Additional observations from a re-analysis of the deposited data

Results flagged for a closer look

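Within the 6 groups of age and sex, 7 values of members stood far from the other mice of their group by Dixon's test, out of 48 combinations of member and group, where chance flags about 1 in 20, or 2.4. Socs4 in P15 male 1 was 9.38 CPM, with the nearest male at 17.2 CPM. Socs7 in the same mouse was 75.0 CPM, with the nearest male at 64.5 CPM. Socs5 in 8 weeks male 4 was 26.7 CPM against 33.5 CPM in the nearest male. Socs6 in 8 weeks female 1 was 30.4 CPM against 46.5 CPM in the nearest female. Socs2 in 8 weeks female 6 was 6.79 CPM against 4.54 CPM, and Socs2 in P6 female 5 was 15.4 CPM against 21.9 CPM. Socs7 in P15 female 3 was 77.7 CPM against 68.5 CPM. In P15 male 1 the deviation from the group mean was 1.19 in neural markers and -0.66 in microglial markers, in mean log2 CPM.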

How the results depend on the processing

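Each member was refitted under 18 alternatives for each of the 3 age comparisons. Of the 432 values against no change, 409 kept their direction and their side of the threshold. Another 13 kept their direction but lost the call, and 1 kept it and gained the call. The remaining 9 changed sign, and some of these lost the call too, so that 13 is not the full number of calls lost. Most of the exceptions came from the 2 covariates, which did not overlap between P6 and 8 weeks. With neural markers as a covariate the number of members past 2-fold was 1 at P15 against P6 (Socs2 lost the call) and 0 at 8 weeks against P6, and those changed numbered 4 at 8 weeks against P6 and 2 at 8 weeks against P15. With immediate early genes those changed numbered 5 and 4, and Cish lost its call past 2-fold at 8 weeks against P6, which left 2. The share of all genes changed fell too, from 74.4% to 48.8% with neural markers and 45.8% with immediate early genes at 8 weeks against P6, and from 47.9% to 39.7% and 26.8% at 8 weeks against P15. Genes of the 11 lists, stress genes included, changed between P6 and 8 weeks numbered 56 with neural markers and 68 with immediate early genes (104 in the main analysis), and 29 with immediate early genes between P15 and 8 weeks (68). Scaling by library size gave 18 relations past the threshold in place of 11. The relation of Socs6 with microglial markers was lost (adjusted p = 0.0900 by permutation, against 0.0275), and r for Socs7 went from 0.12 to 0.68 with neural markers and from -0.26 to -0.73 with microglial markers. All 35 mice gave 12 relations, without Socs5 and Socs6 and with Socs1 and Socs5 (r from -0.38 to -0.58, adjusted p = 0.0209 by permutation) and immediate early genes and Socs5 (r = -0.47, adjusted p = 0.0455).

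Signs turned as follows. With neural markers, at 8 weeks against P15, the log2FC was 0.040 for Socs2, -0.36 for Socs3 and 0.010 for Cish, and at 8 weeks against P6 it was -0.17 for Socs6, -0.13 for Jak1, -0.0059 for Jak2, -0.31 for Tyk2, -0.79 for Stat3, -0.25 for Stat6, 1.38 for Egfr and 1.41 for Spsb4. With immediate early genes it was -0.0037 for Socs3 at 8 weeks against P15, and at 8 weeks against P6 -0.094 for Socs6, -0.48 for Stat3, 0.25 for Egfr, 0.14 for Ctf1 and 0.00051 for Spsb4. Small differences that were not called also turned, with Socs4 at P15 against P6 at -0.079 and Stat3 at 8 weeks against P6 at -0.091 with library size scaling. With 1 of 6 mice left out in turn, Socs4 at P15 against P6 ran from -0.013 (without P6 female 5) to 0.10 (without P15 male 1), Socs6 from -0.091 to 0.022 (the same mice), and Stat3 at 8 weeks against P6 from -0.017 (without P6 female 2) to 0.040 (without P6 female 3). The cause was not tested.

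Leaving out in turn each of the 4 P6 females, P15 male 1 and 8 weeks male 4, the last 2 chosen after the data were seen, gave 6 to 7 members changed at 8 weeks against P15, 8 at 8 weeks against P6 and 6 at P15 against P6, with 0, 3 and 2 past 2-fold and 0 for each comparison of sexes and the interaction. Genes of the 11 lists changed numbered 57 to 75, 101 to 107 and 90 to 99. Mice with the same number are different animals, and the numbers do not pair them. Same-numbered mice of different groups had a median correlation of deviations of 0.0325 (27 of 80 pairs over 0.1). For mice of different groups with other numbers it was -0.0108 (118 of 400 pairs over 0.1). Of the 34 mice, 2 were closest to a mouse of their own number. With the replicate block the members changed numbered 6, 8 and 7 and those past 2-fold 2, 3 and 0, and no member's call changed. Per-length levels moved by more than the spread between mice in 12 of 30 cases with the longest transcript. The cases of Socs1 and Socs4 could not move, since their lengths are the same by both measures. The 34 mice and the depth of 23316107 fragments or more left no member near the detection floor.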
